A study of Mus musculus with 24 samples.

Results

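Glutathione is the main thiol antioxidant of animal cells, a tripeptide of glutamate, cysteine and glycine. The report covers 5 genes that make and regenerate it, chosen by name: Slc7a11, Gclc, Gclm, Gss and Gsr. All 5 were among the 14577 genes tested, out of 35968 genes with a matched transcript. RNA was sequenced from C2C12 cells, an established line of mouse myoblasts, kept undifferentiated and subconfluent and taken 48 h after siRNA treatment. There were 4 groups of 3 libraries. The control group (siCont) had an siRNA with no target, the siKeap1 group one directed at Keap1, the siFem1b group one directed at Fem1b, and the siFem1b/Keap1 group the last 2 together. Each target was depleted with a single siRNA sequence, all groups were of the one cell line, and siRNA doses are not given in the sources used here. The labels do not say whether the 3 libraries of a group came from separate cultures, so p-values measure the spread between libraries, which may be technical.

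Cells take up cystine, the oxidised dimer of cysteine, through system xc-, in which SLC7A11 is the transporting chain and SLC3A2 its partner. Glutamate-cysteine ligase, made of the catalytic subunit GCLC and the modifier subunit GCLM, then joins glutamate to cysteine in the rate-limiting step, and glutathione synthetase (GSS) adds glycine. Glutathione reductase (GSR) uses NADPH to return oxidised glutathione to its thiol form. These genes are known targets of NRF2, the transcription factor encoded by Nfe2l2, which KEAP1 holds at a low level by presenting it to a CUL3 ubiquitin ligase. Slc7a11 is also a known target of ATF4, a transcription factor of amino acid stress. FEM1B selects substrates for CUL2 ubiquitin ligases and acts in the response to reductive stress. The design asks what each depletion does to these transcripts and whether the effect of Keap1 depletion is the same when Fem1b is depleted too.

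Libraries held 31.9 M to 43.0 M estimated counts, both sequencing runs added. Levels are given as CPM, the counts of a gene scaled to the library size. Keap1 was at 61.8 CPM in siCont and 59.2 in siFem1b, against 9.99 in siKeap1 and 9.38 in siFem1b/Keap1 (means of 3 libraries). Fem1b was at 96.9 CPM in siCont and 102 in siKeap1, against 13.2 in siFem1b and 12.7 in siFem1b/Keap1. Both targets were thus depleted in the libraries labelled so. The 7 myoblast markers summed to 1945 to 1995 CPM in siCont and 1709 to 1828 in siKeap1. They summed to 2356 to 2483 CPM in siFem1b and 2128 to 2186 in siFem1b/Keap1, so no groups overlapped. The 6 markers of differentiated muscle summed to 11.1 to 13.9 CPM in siCont and 15.1 to 16.3 in siKeap1, against 183 to 195 in siFem1b and 147 to 159 in siFem1b/Keap1. Acta1, skeletal muscle actin, was alone at 6.89 CPM in siCont and 13.5 in siKeap1, against 64.4 for siFem1b and 132.5 where both were depleted. In siKeap1 against siCont, 1 of the 6 rose and 3 fell (median log2 fold change -0.88), and Myog, the regulator myogenin, was at 0.037 CPM against 1.57. Of all genes tested, 18.4% rose and 23.8% fell there. All 6 rose against siCont in siFem1b and in siFem1b/Keap1, where 30% and 33.8% of all genes did. In siFem1b/Keap1 against siFem1b, however, 1 rose and 5 fell (median log2 fold change -2.28), where 21.3% and 21.8% of all genes did. Myog was among the markers that fell, from 59.3 to 4.97 CPM. The part of the myoblast and muscle markers in the results below was not tested. Markers of other cell types, 5 per type, were low but moved with the groups. Epithelial markers summed to 0.685 to 0.828 CPM in siCont and 3.10 to 3.73 in siFem1b. They summed to 2.43 to 2.67 in siKeap1 and 9.29 to 9.78 where both were depleted. In that last group all 4 tested rose (median log2 fold change 3.76), against 33.8% of all genes. Leukocyte markers summed to 1.49 to 1.98, 2.34 to 2.58, 3.46 to 4.27 and 5.66 to 6.47 CPM in the same order of groups, with Adgre1 at 0 in all groups. Endothelial and adipocyte markers summed to at most 2.14 and 0.581 CPM. Their part was not tested either. In bulk RNA, fewer cells that express a gene and less of its RNA per cell cannot be told apart.

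Keap1 depletion raised all 5 genes, and Fem1b depletion on top of it brought all 5 down again, but to different levels. Slc7a11 fell below its control level and Gclm did too, whereas Gclc, Gss and Gsr stayed above it. Relative to the siKeap1 mean, the siFem1b/Keap1 mean stood at 7.01% for Slc7a11, 24.4% for Gclm, 50.04% for Gclc, 57.4% for Gsr and 64.0% for Gss.

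The siRNAs changed much of the transcriptome, so calls and separated groups were common among all genes. At an adjusted p under 0.05, 42.2% of the genes tested were called in siKeap1 against siCont (18.4% higher, 23.8% lower), 62.1% in siFem1b against siCont (30% higher, 32.1% lower) and 67.5% in siFem1b/Keap1 against siCont (33.8% higher, 33.7% lower). In siFem1b/Keap1 63.6% were called against siKeap1 (32% higher, 31.6% lower) and 43.1% against siFem1b (21.3% higher, 21.8% lower), and 63.9% were called between the single depletions (32.1% higher in siFem1b, 31.8% lower). The libraries of both groups did not overlap for 51.2%, 63.6%, 70.3%, 69.4%, 50.8% and 67.6% of the genes in the same order. Counts of genes called below, of the 5 and of the other lists, are to be read against these shares.

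**Figure D1:**
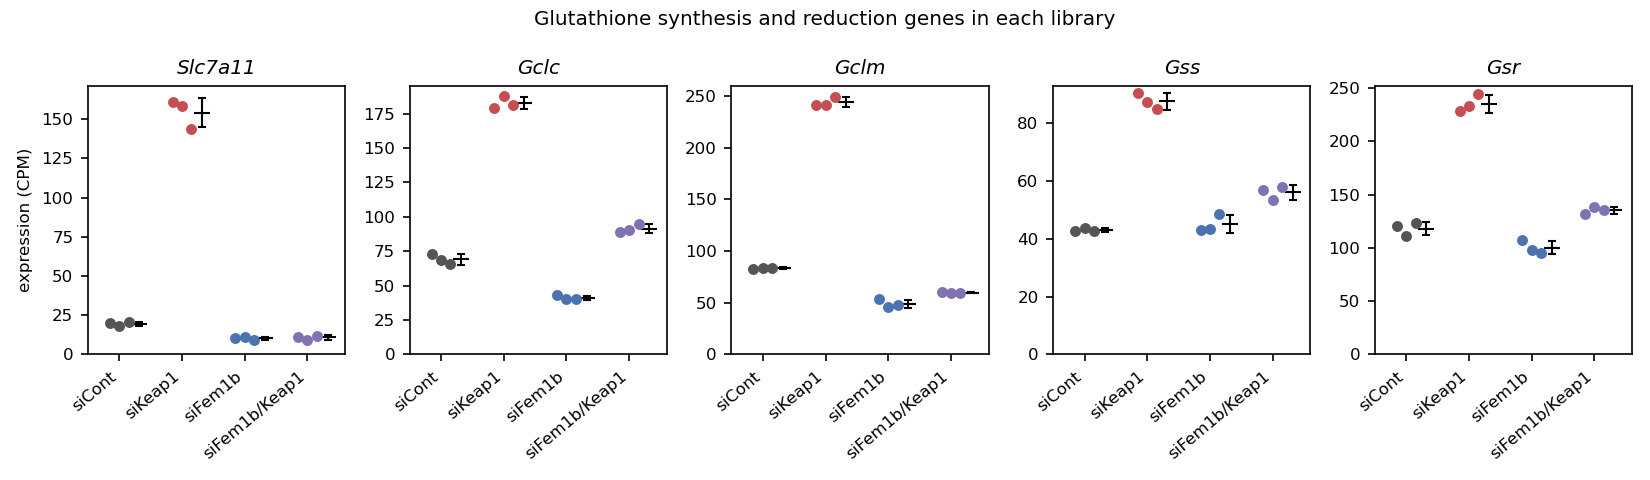
Expression of the 5 genes in CPM (linear axes from 0) in each of the 12 libraries, by siRNA group. Points are libraries and the black marks are the mean ± SD of 3. The siKeap1 libraries are the highest in every panel, and the siFem1b/Keap1 libraries lie below siCont for Slc7a11 and Gclm and above it for Gclc, Gss and Gsr.

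Slc7a11 (ENSMUSG00000027737.10, minus strand of chr3:49892526-50443614, GRCm38) was the least abundant of the 5 per transcript length in siCont, at 3.18 TPM (the deposited abundance per transcript length), against 31.4 for Gclc, 36.6 for Gss, 86.5 for Gsr and 94.3 for Gclm. Its promoter as given by RefSeq (GRCm38.p6, minus strand of chr3:50443564-50443863, 250 bases before to 50 after the start) is shown because it holds a motif on which ATF4 acts. Capitals mark the 2 matches to the amino acid response element, TGATGNAA, at positions -66 to -59 on the gene's strand and -47 to -40 on the opposite strand.
Slc7a11 promoter: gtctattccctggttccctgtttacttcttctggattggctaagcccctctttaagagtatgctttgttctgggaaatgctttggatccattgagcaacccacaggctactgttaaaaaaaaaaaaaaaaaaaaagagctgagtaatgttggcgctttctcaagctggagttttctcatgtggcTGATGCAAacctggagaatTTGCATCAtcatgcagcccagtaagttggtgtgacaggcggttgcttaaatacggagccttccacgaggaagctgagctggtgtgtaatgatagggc
Of 32851 promoters of this length, 3.97% held this motif on either strand. The core of the antioxidant response element through which NRF2 acts, TGACNNNGC, was not found in this window, which says nothing of sites elsewhere. A match describes letters and is not evidence of binding.

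Slc7a11 stood at 19.9, 17.9 and 20.3 CPM in the siCont libraries and at 161, 158 and 143 CPM in the siKeap1 libraries. The siKeap1 values were far above the control range, with a log2 fold change of 2.99 (SE 0.078), that is 7.93-fold higher (edgeR quasi-likelihood test, adjusted p = 4.1e-14). This was the largest rise of the 5 genes. All 5 rose in this comparison, in which 18.4% of all genes tested were called higher and 42.2% were called in either direction. With siFem1b alone, Slc7a11 was at 10.4, 11.4 and 9.44 CPM, below every control library (log2 fold change -0.90, SE 0.091, adjusted p = 2.9e-07).

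In siFem1b/Keap1 the Slc7a11 values were 11.3, 9.17 and 11.9 CPM. None of these libraries overlapped with siCont, and the gene was 1.80-fold lower (log2 fold change -0.85, SE 0.091, adjusted p = 4.3e-07). Against siKeap1 it was 14.3-fold lower (log2 fold change -3.84, SE 0.084, adjusted p = 2.8e-15). The siFem1b/Keap1 and siFem1b libraries overlapped, and their difference did not pass the test (log2 fold change 0.054, SE 0.098, adjusted p = 0.70). The sign of that small difference changed when the third library of either group was left out, to -0.019 without the siFem1b one and -0.030 without the siFem1b/Keap1 one. The order of the levels was thus siKeap1, siCont, and then siFem1b/Keap1 and siFem1b, which did not differ beyond their spread. The sums of counts behind the last 2 groups were 1183 and 1189, against 16670 in siKeap1.

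The change of the Keap1 effect with Fem1b depleted, that is the siFem1b/Keap1 to siFem1b difference minus the siKeap1 to siCont difference, is the interaction of both depletions. For Slc7a11 it was -2.93 on the log2 scale (SE 0.12, adjusted p = 3.7e-10). All 5 genes had a negative interaction that passed the test, where 5.32% of all genes tested were called lower, 6.11% higher and 11.4% in either direction.

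The plot of changes by comparison shows how far the genes part in the combined depletion.

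**Figure D2:**
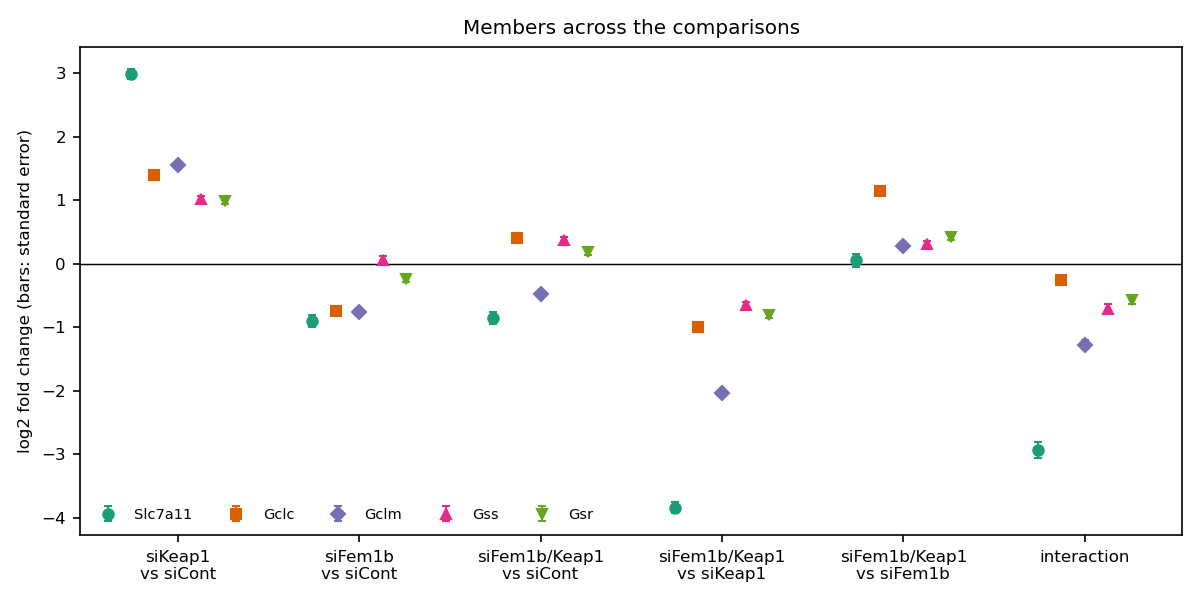
Log2 fold changes of the 5 genes in 5 comparisons, with the interaction (the siKeap1 effect with siFem1b minus that without it) at the right. Symbols are edgeR estimates and bars their standard errors. Slc7a11 has the widest range, from 2.99 in siKeap1 against siCont to -3.84 in siFem1b/Keap1 against siKeap1, and Gclc the interaction nearest to 0.

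Nearly all Slc7a11 counts (94.9% to 98.7% over the libraries) were assigned to the transcript Slc7a11-201. A second protein-coding transcript, Slc7a11-205, has 12 exons as Slc7a11-201 does, but its last one lies far downstream, at chr3:49892526-49893147, where that of Slc7a11-201 is at chr3:50364938-50372366. Slc7a11-205 had 69.4 to 118 estimated counts in each siKeap1 library, or 1.28% to 2.29% of the gene. It had 0 to 2.44 counts in siCont and was listed at 0 in all siFem1b and siFem1b/Keap1 libraries. Over the 3 libraries of a group, a count of 0 allows a share of up to 0.252% in siFem1b and 0.254% in siFem1b/Keap1 (3 counts of the Slc7a11 total, counting error only).

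Slc7a11-201 also holds a match to the seed of the siFem1b guide (its bases 2 to 8), the stretch by which a guide can act on unintended transcripts. The site is printed because Slc7a11 fell with this siRNA. Its coding sequence continues the pairing to 10 bases, shown in capitals, at chr3:50438882-50438911 (GRCm38, minus strand).
Slc7a11 site: cctgtcctaTGCAGAATTAggtacaagcat
The background searched was 13871 protein-coding transcripts, the most abundant of each gene by TPM. Of these, 23.5% held a match of 7 bases to this seed anywhere and 11.95% in the 3' UTR. For the siKeap1 guide the seed matched no annotated transcript of the 5 genes, against 11.2% of the background. All annotated transcripts of the 5 genes were searched, a wider search than that behind the shares. Whether the siFem1b match lowered Slc7a11 was not tested.

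Gclc (ENSMUSG00000032350.9, plus strand of chr9:77754535-77794485) encodes the catalytic subunit of the ligase, and 99.5% to 99.9% of its counts in each library came from its 1 protein-coding transcript, Gclc-201. Its levels were 73.2, 68.5 and 65.7 CPM in siCont and 179, 188 and 181 CPM in siKeap1. The groups were well apart, by 2.64-fold (log2 fold change 1.40, SE 0.045, adjusted p = 1.2e-14). With siFem1b it was at 42.9, 40.3 and 40.4 CPM, below all controls (log2 fold change -0.75, SE 0.047, adjusted p = 1.0e-10). Of the 5 genes, 4 fell in this comparison, in which 32.1% of all genes were called lower and 62.1% in either direction.

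In siFem1b/Keap1 Gclc was at 88.9, 90.5 and 94.8 CPM, above every control library and below every siKeap1 library. Gclc was 1.32-fold higher there than in siCont (log2 fold change 0.40, SE 0.045, adjusted p = 2.1e-07), a comparison in which 3 of the 5 genes rose and 2 fell, against 33.8% and 33.7% of all genes. Compared with siKeap1, it was 1.999-fold lower (log2 fold change -0.999, SE 0.044, adjusted p = 6.4e-13). All 5 genes fell there, against 31.6% of all genes called lower and 63.6% called in either direction. Compared with siFem1b alone, its level was up 2.22-fold (log2 fold change 1.15, SE 0.047, adjusted p = 8.4e-13), and 4 of the 5 genes rose in that comparison, against 21.3% of all genes.

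The interaction of Gclc was the smallest of the 5, at -0.25 (SE 0.064, adjusted p = 0.014), and with the first sequencing run alone it did not pass the test (-0.23, adjusted p = 0.18). Keap1 depletion thus raised Gclc by 1.40 on the log2 scale without siFem1b and by 1.15 with it. The order of its levels was siKeap1, siFem1b/Keap1, siCont and siFem1b, and all neighbours differed beyond their spread.

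Gclm (ENSMUSG00000028124.15, plus strand of chr3:122245557-122270732) encodes the modifier subunit, which improves the catalytic efficiency of GCLC. Its RefSeq promoter (GRCm38.p6, plus strand of chr3:122245307-122245606) is shown because it holds the antioxidant response element core on the opposite strand, at positions -134 to -126, in capitals. Of all promoters of this length, 12.4% held such a match.
Gclm promoter: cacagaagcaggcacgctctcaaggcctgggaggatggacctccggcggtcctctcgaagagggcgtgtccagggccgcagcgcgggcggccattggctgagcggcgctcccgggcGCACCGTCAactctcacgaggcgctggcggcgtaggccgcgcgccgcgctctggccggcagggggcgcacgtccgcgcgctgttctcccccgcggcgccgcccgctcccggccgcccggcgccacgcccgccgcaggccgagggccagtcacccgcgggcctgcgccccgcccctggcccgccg
The promoter of Gss held no match to either motif.

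Gclm was at 82.5, 84.0 and 83.5 CPM in siCont and at 242, 241 and 249.6 CPM in siKeap1, a rise of 2.93-fold (log2 fold change 1.55, SE 0.045, adjusted p = 2.9e-15). With siFem1b it was at 53.4, 46.0 and 47.9 CPM (log2 fold change -0.76, SE 0.046, adjusted p = 6.1e-11). The control and siKeap1 libraries overlapped neither each other nor those of siFem1b. In siFem1b/Keap1 it was at 60.1, 59.6 and 59.4 CPM, between siFem1b and siCont, without overlap with either group.

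Gclm in siFem1b/Keap1 was 1.40-fold lower than in siCont (log2 fold change -0.48, SE 0.046, adjusted p = 2.1e-08). With an offset for transcript length this fall was smaller but still passed the test (-0.27, adjusted p = 0.00045), and by TPM the means were 83.8 and 94.3. Against siKeap1, Gclm was 4.09-fold lower (log2 fold change -2.03, SE 0.046, adjusted p = 1.0e-16). It was 1.21-fold higher than in siFem1b (log2 fold change 0.28, SE 0.047, adjusted p = 7.9e-05). Its interaction was -1.27 (SE 0.064, adjusted p = 2.7e-10). The order of its levels was siKeap1, siCont, siFem1b/Keap1 and siFem1b, so the combined depletion lay on the other side of siCont than it did for Gclc.

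The subunits of the one ligase therefore did not move in step. The per-length ratio of Gclm to Gclc transcripts, taken within each library from TPM, was 3.02 ± 0.20 (SD, n = 3) in siCont, 3.39 ± 0.17 in siFem1b, 3.65 ± 0.23 in siKeap1 and 1.91 ± 0.088 in siFem1b/Keap1. The siFem1b/Keap1 libraries, at 1.83 to 2.00, lay below all others. In exact two-sided permutation tests of 3 libraries against 3, p was 0.1 for siFem1b/Keap1 against siKeap1, for each siRNA group against siCont and after adjustment over these 4 tests, which is the smallest this design allows. From estimated counts not divided by length the ratio was 1.21 in siCont, 1.19 in siFem1b, 1.34 in siKeap1 and 0.653 in siFem1b/Keap1. The sign of the siFem1b difference from siCont thus depended on the scale, and the drop in siFem1b/Keap1 did not. The log2 difference of siKeap1 from siCont was 0.27 by TPM and 0.15 by counts.

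**Figure D3:**
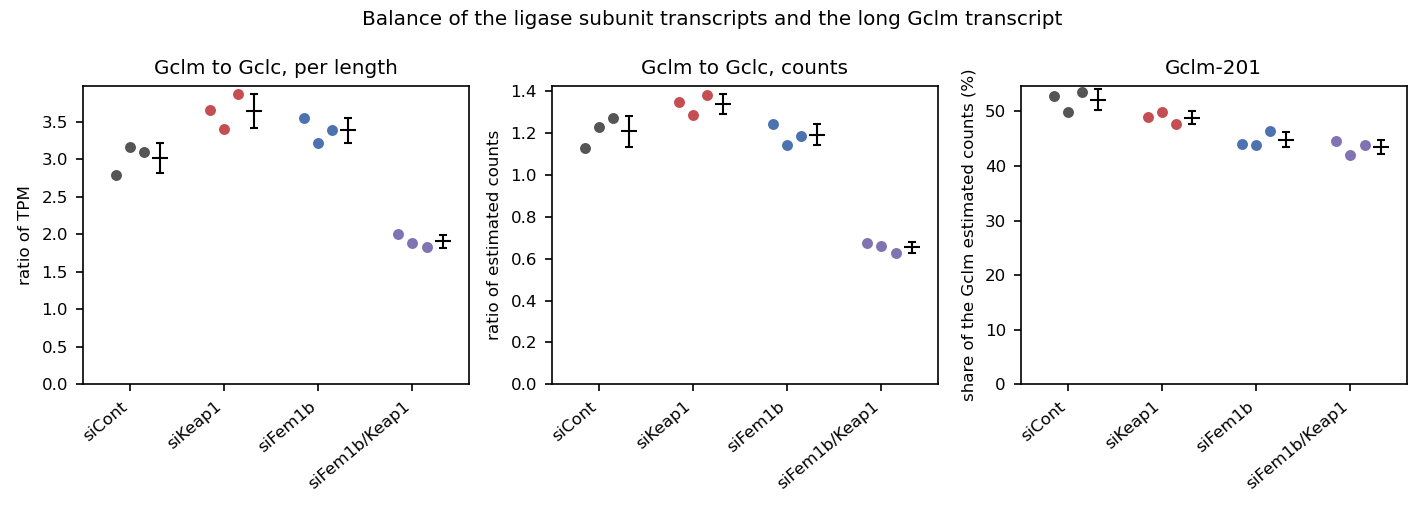
Ratio of Gclm to Gclc in each library from TPM (left) and from estimated counts (middle), and the share of Gclm estimated counts assigned to the long transcript Gclm-201 (right, in %), all axes from 0. Points are libraries and black marks the mean ± SD of 3. The siFem1b/Keap1 ratios from TPM, 1.83 to 2.00, are the lowest, and the Gclm-201 share is lower in both groups with siFem1b.

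Gclm counts were spread over several transcripts. Gclm-201, 5589 bases long, took 49.96% to 53.6% of the gene's counts in siCont and 47.7% to 49.9% in siKeap1, against 43.9% to 46.5% in siFem1b and 42.0% to 44.5% in siFem1b/Keap1. The groups with siFem1b did not overlap with those without it. Gclm-206, of 1002 bases, took 20.4% to 29.4% over the libraries. Of these transcripts, Gclm-201 holds in its 3' UTR a match to the siFem1b seed, in capitals, at chr3:122267623-122267652 (plus strand), and Gclm-206 holds none. Gclm-206 is the Gclm transcript that entered the background of the seed search. Gclm-202, a transcript of 762 bases not annotated as coding, holds a match of 8 bases. It took 3.83% to 8.12% of Gclm counts in siCont, 4.64% to 10.3% in siFem1b, 8.30% to 11.3% in siKeap1 and 6.16% to 8.82% in siFem1b/Keap1. Its median share was 6.14% in siCont and 7.11% in siFem1b, but 9.34% in siKeap1 and 6.27% in siFem1b/Keap1. The libraries overlapped in both of these comparisons. A share also depends on the other transcripts of the gene. Only the site of Gclm-201 is shown.
Gclm-201 site: ctaaaacttaaCAGAATTtgaactaaaagc
Of the other members, Gclc and Gsr held no match to this seed in any transcript, and both fell with siFem1b. Gss held a match of 7 bases in Gss-204, a transcript not annotated as coding with at most 3.55 counts in any library. Gss did not pass the test in siFem1b. Whether any of these matches moved a level or a share was not tested.

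Gss (ENSMUSG00000027610.17, minus strand of chr2:155563181-155592810) encodes the enzyme of the last step of synthesis. It was at 42.7, 43.9 and 42.6 CPM in siCont and at 90.5, 87.5 and 84.8 CPM in siKeap1, up 2.03-fold (log2 fold change 1.02, SE 0.050, adjusted p = 6.4e-12). With siFem1b it was at 43.2, 43.4 and 48.6 CPM. These libraries overlapped with siCont, and the difference did not pass the test (log2 fold change 0.065, SE 0.051, adjusted p = 0.28). With library totals alone as scaling it did pass (log2 fold change 0.16, adjusted p = 0.010), as it did with only genes of at least 5 CPM in 3 libraries (0.12, adjusted p = 0.042). Over all alternatives run the log2 fold change lay between 0.015 and 0.16.

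In siFem1b/Keap1 Gss was at 56.7, 53.3 and 58.1 CPM, above all libraries of siCont and siFem1b and below all of siKeap1. It was 1.30-fold higher than in siCont (log2 fold change 0.38, SE 0.050, adjusted p = 1.9e-06), 1.24-fold higher than in siFem1b (log2 fold change 0.31, SE 0.050, adjusted p = 5.0e-05) and 1.56-fold lower than in siKeap1 (log2 fold change -0.64, SE 0.049, adjusted p = 1.2e-09). Its interaction was -0.71 (SE 0.071, adjusted p = 1.7e-06). The order of its levels was siKeap1, siFem1b/Keap1, and then siFem1b and siCont, which did not differ beyond their spread.

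Part of the siKeap1 rise of Gss lay in counts assigned to a transcript annotated with a retained intron. Gss-207 (897 bases, annotated as a retained intron, minus strand of chr2:155577522-155587576) had 375, 377 and 449.5 estimated counts in the siKeap1 libraries, from the lowest to the highest. It had 2.95 to 9.20 counts in siCont, 1.53 to 3.03 in siFem1b and 2.93 to 6.04 in siFem1b/Keap1. It took 11.8% to 13.4% of Gss counts in siKeap1 and at most 0.563% in the other libraries, while the main coding transcript, Gss-201, took 82.7% to 83.5% in siKeap1 and 94.6% to 97.4% in siCont. Of 63847 transcripts compared, 0.21% gained at least 10 percentage points of their gene's counts in siKeap1 without overlap with siCont. The intron kept in Gss-207 lies between exons 4 and 5 of the 13 exons of Gss-201, at chr2:155578429-155578711 (GRCm38, minus strand, 283 bases), and is shown with its first and last 2 bases, the splice site letters, in capitals.
Gss intron: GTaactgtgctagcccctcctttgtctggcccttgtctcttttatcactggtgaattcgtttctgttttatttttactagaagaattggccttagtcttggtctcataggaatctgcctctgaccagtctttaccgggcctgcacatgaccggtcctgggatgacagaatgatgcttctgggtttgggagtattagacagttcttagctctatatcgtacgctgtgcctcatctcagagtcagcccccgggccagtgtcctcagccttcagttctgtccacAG

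The gene Acss2, which encodes a cytosolic acetyl-CoA synthetase, lies on the opposite strand and reaches into Gss. The Acss2 transcript with most counts, Acss2-201, lies outside Gss and was also highest in siKeap1. It had 1045 to 1299 counts there, against 263 to 316 in siCont, 480 to 509 in siFem1b and 582 to 714 in siFem1b/Keap1. The long Acss2-202, which reaches into Gss, had at least 25.1 counts in each siKeap1 library and at most 14.8 in any other. Short transcripts of Acss2 inside Gss, Acss2-207 and Acss2-210, were seen mainly in siKeap1. Acss2-207 had 145 to 197 counts and Acss2-210 had 75.0 to 109 in siKeap1, against at most 5.85 in any other library. Acss2-207 shares 159 exon bases with Gss-201 and 0 with Gss-207. Whether strand was used in counting is not given in the sources used here, so reads of both genes cannot be told apart where they overlap. Without the counts of Gss-207, an alternative chosen after the data were seen, Gss still rose in siKeap1 (log2 fold change 0.83, adjusted p = 1.2e-10), and its interaction was -0.52 (adjusted p = 5.7e-05).

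**Figure D4:**
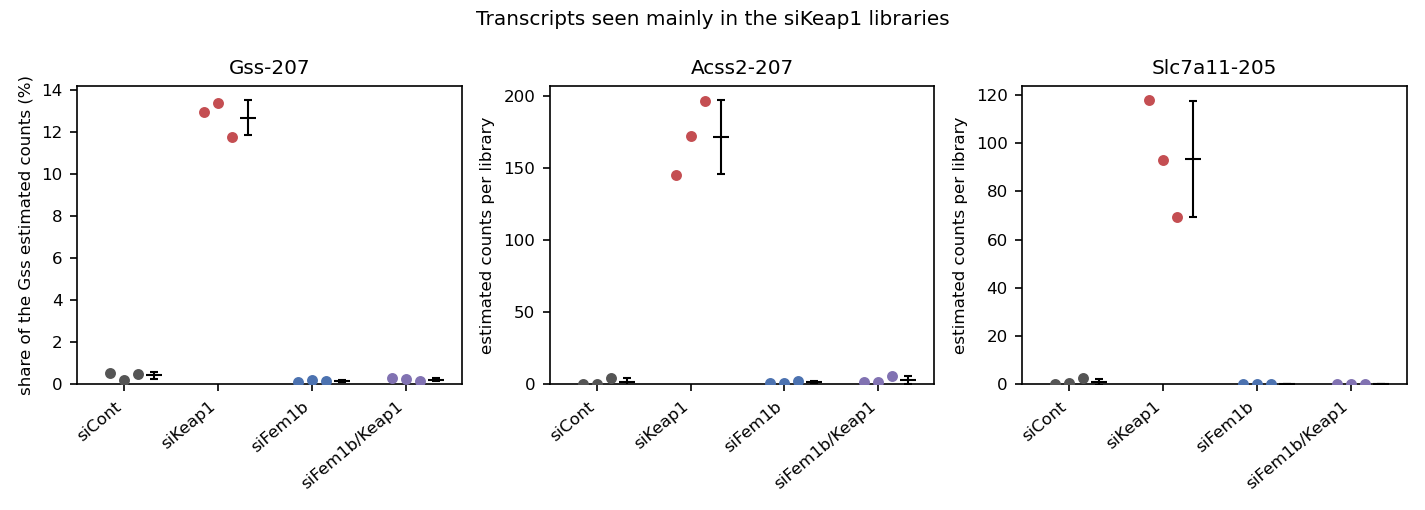
Share of Gss estimated counts assigned to Gss-207 (left, in %), and estimated counts of Acss2-207 (middle, from the lowest to the highest library of a group) and Slc7a11-205 (right), all axes from 0. Points are libraries and black marks the mean ± SD of 3. The siKeap1 libraries stand apart, with 11.8% to 13.4% for Gss-207 and 69.4 to 118 counts for Slc7a11-205.

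Gsr (ENSMUSG00000031584.16, plus strand of chr8:33652523-33698163) recycles rather than makes glutathione. It was at 120.3, 111 and 123 CPM in siCont and at 228, 233 and 244 CPM in siKeap1, up 1.99-fold (log2 fold change 0.99, SE 0.048, adjusted p = 5.9e-12). With siFem1b it was at 107, 97.8 and 95.5 CPM, just below the controls (log2 fold change -0.24, SE 0.048, adjusted p = 0.00030). This was the smallest of the 4 falls, and with library totals alone it was -0.14 (adjusted p = 0.016).

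In siFem1b/Keap1 Gsr was at 132, 138 and 135 CPM, above all controls by a small margin. It was 1.14-fold higher than in siCont (log2 fold change 0.19, SE 0.048, adjusted p = 0.0016), and this call was lost with an offset for transcript length (log2 fold change 0.14, adjusted p = 0.067), while library totals alone gave 0.32. It was 1.74-fold lower than in siKeap1 (log2 fold change -0.80, SE 0.048, adjusted p = 4.1e-11) and 1.35-fold higher than in siFem1b (log2 fold change 0.43, SE 0.048, adjusted p = 8.1e-07). Its interaction was -0.56 (SE 0.068, adjusted p = 1.6e-05). The order of its levels, siKeap1, siFem1b/Keap1, siCont and siFem1b, was that of Gclc. Between 93.0% and 98.2% of its counts came from the coding transcript Gsr-201 in every library.

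The single depletions were also compared with each other. All 5 genes were lower in siFem1b than in siKeap1, against 31.8% of all genes, by 14.8-fold for Slc7a11, 4.97-fold for Gclm, 4.43-fold for Gclc, 2.35-fold for Gsr and 1.94-fold for Gss. The 3 comparisons with siCont share the control libraries, so their results are not independent of one another.

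The list of regulators held 9 genes, both siRNA targets included. Of these, 3 rose and 4 fell in siKeap1, 2 rose and 4 fell in siFem1b, and 3 rose and 4 fell in siFem1b/Keap1, each against siCont. Over all genes the shares called higher and lower were 18.4% and 23.8%, 30% and 32.1%, and 33.8% and 33.7%. Several of the regulator counts lie near those shares, and they include the siRNA targets, which were depleted by design. Nfe2l2 and Atf4 did not rise in any group. Nfe2l2, which encodes NRF2, was highest in siCont at 136 CPM, followed by siKeap1 at 99.4, siFem1b at 66.8 and siFem1b/Keap1 at 51.4 CPM. It fell in each comparison with siCont, with log2 fold changes of -0.45 (adjusted p = 5.5e-09), -1.02 (adjusted p = 2.9e-14) and -1.40 (adjusted p = 4.5e-16). Atf4 was at 388, 305, 304 and 208 CPM in the same order, and fell by log2 fold changes of -0.35 (adjusted p = 8.5e-06), -0.35 (adjusted p = 3.3e-06) and -0.90 (adjusted p = 7.1e-12). The interaction passed the test for neither Nfe2l2 (0.072, adjusted p = 0.42) nor Atf4 (-0.20, adjusted p = 0.074). Nfe2l1, a relative of Nfe2l2, was at 297 CPM in siCont and 242 in siKeap1, and rose in siFem1b (456) and siFem1b/Keap1 (395). Bach1, a repressor at the same DNA elements as NRF2, was at 57.5 CPM in siCont and rose in siFem1b (72.4) and siFem1b/Keap1 (73.9). Mafk, a small MAF partner of both, was at 34.3 CPM in siCont and rose in siKeap1 (48.4) and siFem1b/Keap1 (46.0). These 3 were picked after their values were seen. Protein levels were not measured in these data.

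Other genes of glutathione metabolism were taken from 6 lists of 66 genes, of which 60 were tested. In siKeap1, 30 rose and 7 fell against siCont, where 18.4% and 23.8% of all genes did (median log2 fold change 0.23, against -0.024 over all genes tested). In siFem1b, 18 rose and 32 fell (median -0.29, against -0.0088), where 30% and 32.1% of all genes did. The number that rose there lies at the background. In siFem1b/Keap1 34 rose and 22 fell (median 0.28, against 0.0050), where 33.8% and 33.7% of all genes did. The number that fell there lies near the background. The interaction was higher for 9 and lower for 14, against 6.11% and 5.32% of all genes.

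Slc3a2, the partner chain of SLC7A11, changed in the same directions as Slc7a11 in each comparison with siCont. It was 1.27-fold higher in siKeap1 (log2 fold change 0.34, SE 0.040), 1.52-fold lower in siFem1b (-0.60, SE 0.041) and 2.02-fold lower in siFem1b/Keap1 (-1.02, SE 0.041), with an interaction of -0.75 (adjusted p = 5.8e-08). Slc1a4, a carrier of small neutral amino acids, rose 1.74-fold in siKeap1 and was 1.51-fold lower in siFem1b/Keap1, with an interaction of -0.84. Ctns, which exports cystine from lysosomes, went the other way: it fell in siKeap1 (log2 fold change -0.48) and was 2.03-fold higher in siFem1b/Keap1. Of the 10 tested genes of cysteine and glutamate supply, 4 rose and 3 fell in siKeap1, 3 rose and 6 fell in siFem1b, and 3 rose and 7 fell in siFem1b/Keap1. Over all genes the shares were 18.4% and 23.8%, 30% and 32.1%, and 33.8% and 33.7%, so that several of these counts lie near the background.

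The list of NADPH supply, on which GSR depends, held enzymes of several pathways, not all of which make NADPH themselves. NADPH was not measured. The list had 7 of 16 genes higher and 3 lower in siKeap1, 2 higher and 11 lower in siFem1b, and 5 higher and 8 lower in siFem1b/Keap1. Over all genes the shares were 18.4% and 23.8%, 30% and 32.1%, and 33.8% and 33.7%. The 3 lower in siKeap1 and the 5 higher in siFem1b/Keap1 lie near the background. The enzymes of the pentose phosphate pathway that make NADPH, Pgd and G6pdx, rose 2.30-fold and 2.10-fold in siKeap1, and Me1, the cytosolic malic enzyme, rose 1.58-fold. In siFem1b/Keap1 the strongest evidence in the list was for one-carbon enzymes of mitochondria, which fell: Aldh1l2 by 4.61-fold (log2 fold change -2.20), Mthfd2 by 3.00-fold (-1.59) and Mthfd1l by 2.59-fold (-1.38). Their interactions were -1.44, -0.55 and -0.41 (adjusted p = 4.4e-10, 1.8e-06 and 4.4e-05). In the same order, these enzymes were also lower in siFem1b alone, at 65.2, 84.7 and 90.3 CPM against 107, 126 and 176 in siCont. In siKeap1 they were at 103, 91.2 and 176 CPM, so Mthfd2 was lower there as well.

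Genes that use glutathione, mainly transferases and peroxidases, were mostly higher than in siCont both in siKeap1 and in the combined depletion. Of 15 tested, 11 rose and 0 fell in siKeap1, 4 rose and 6 fell in siFem1b, and 14 rose and 1 fell in siFem1b/Keap1. Over all genes the shares called higher and lower were 18.4% and 23.8%, 30% and 32.1%, and 33.8% and 33.7% in that order. The siFem1b counts lie near the background. Gsta4, a transferase for lipid aldehydes, rose 5.40-fold in siKeap1, fell 4.54-fold in siFem1b and had an interaction of 0.36 (adjusted p = 0.00087). Esd, which hydrolyses S-formylglutathione, rose 2.32-fold in siKeap1 and fell 2.01-fold in siFem1b, with an interaction of 0.34 (adjusted p = 0.0014). Gstm1, of a family of near-identical genes whose reads may be shared, was 3.51-fold higher in siKeap1 and 2.21-fold higher in siFem1b/Keap1, with an interaction that did not pass the test (0.13, adjusted p = 0.25). Mgst3, a microsomal transferase, was 2.06-fold higher in siFem1b and 2.22-fold higher in siFem1b/Keap1. Mgst1 was 6.60-fold higher in siFem1b/Keap1, at low levels (5.71 CPM against 0.877 in siCont). It was at 7.61 CPM in siKeap1 and 1.03 in siFem1b.

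Transporters of glutathione and its conjugates numbered 5, of which 3 rose and 1 fell in siKeap1, 1 rose and 4 fell in siFem1b, and 2 rose and 2 fell in siFem1b/Keap1. The shares of all genes called higher and lower were 18.4% and 23.8%, 30% and 32.1%, and 33.8% and 33.7%. Several of these counts lie near those shares. Abcc4 rose 2.85-fold in siKeap1 with an interaction of -0.72 (adjusted p = 1.1e-07). Abcc1 rose 1.42-fold in siKeap1 and was 1.84-fold lower in siFem1b and 1.63-fold lower in siFem1b/Keap1. Slc25a39, which carries glutathione into mitochondria, was 1.57-fold lower in siFem1b/Keap1. Abcc5 rose in each comparison with siCont, 1.33-fold in siKeap1, 1.35-fold in siFem1b and 1.81-fold in siFem1b/Keap1.

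Of 10 tested genes of glutathione breakdown, 3 rose and 0 fell in siKeap1, 7 rose and 2 fell in siFem1b, and 8 rose and 2 fell in siFem1b/Keap1. The shares of all genes called higher were 18.4%, 30% and 33.8%, and 3 of 10 in siKeap1 is near the first. Ggct, the cyclotransferase that acts on gamma-glutamyl amino acids, rose 1.94-fold in siKeap1. Chac1, which cleaves glutathione in the cytosol, rose 1.49-fold in siFem1b and was 1.96-fold lower in siFem1b/Keap1, with an interaction of -1.41 (adjusted p = 4.7e-09). Of the 4 glutaredoxins, which reduce mixed disulfides with glutathione, 2 rose and 0 fell in siKeap1, 1 rose and 3 fell in siFem1b, and 2 rose and 2 fell in siFem1b/Keap1. The shares of all genes called lower were 23.8%, 32.1% and 33.7%. Counts from 4 genes are too few to set apart from the shares of all genes. Glrx5, a mitochondrial iron-sulfur protein carrier, was 1.63-fold lower in siFem1b and 1.60-fold lower in siFem1b/Keap1.

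Across the 12 libraries, log2 levels of the 5 genes correlated with one another with Pearson's r from 0.848 to 0.988, highest for Slc7a11 with Gclm. These values describe 4 groups of 3 libraries and carry no test. Among 9942 other genes of at least 5 CPM, the levels most like Slc7a11 were those of Adh7 (r = 0.994), Hmox1 (0.983) and Bace1 (0.983). The levels most like Gclm were those of Hmox1 (0.998), Stmn4 (0.992) and Adh7 (0.990). Gclc was most like Pgd (0.998), Ptprn (0.997) and Slc22a23 (0.995), Gsr most like Abcc4 (0.992), Ampd3 (0.992) and Gbe1 (0.988), and Gss most like Rgs12 (0.990), Pcx (0.989) and Areg (0.982). Hmox1, the inducible haem oxygenase, was like Slc7a11 and Gclm in lying below siCont in siFem1b/Keap1 (log2 fold change -0.43), whereas Pgd, like Gclc, lay above it (0.36). Pearson's r does not reflect the size of a change. In siKeap1 against siCont the log2 fold change of Bace1 was 0.50, against 2.99 for Slc7a11. That of Rgs12 was 0.27, against 1.02 for Gss, while Pgd (1.20) and Gclc (1.40) were closer.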

How the data were processed

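RNA of 12 libraries was poly(A)-selected, per the labels. Each has 2 samples, the second titled a technical replicate, which is taken here as a second sequencing run. The titles do not say whether it was a second library of the same RNA. Per the submitters' processing notes, kallisto 0.44.0 and build mm10 were used. The deposited tables give estimated counts (expected counts, in which the tool shares reads that fit several transcripts), TPM (abundance per transcript length) and effective length for 118489 transcripts. Read trimming and the use of strand are not given in the sources used here.

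Identifiers of 116728 transcripts (98.5%) were found in GENCODE M21 (GRCm38), and the rest, with 0.608% to 0.637% of counts, were left out. The authors' estimated counts were summed per gene and over both runs and rounded. Genes were filtered with filterByExpr, scaled by trimmed mean of M-values (TMM, factors 0.952 to 1.04) and tested with edgeR 4.0.16 (R 4.3.3; robust quasi-likelihood, two-sided, all 12 libraries in 1 fit). P-values were adjusted over all 14577 genes within each comparison, with a threshold of 0.05. "Rose" and "fell" are used of genes past it. CPM use the TMM-scaled library size. The authors' TPM entered the ratio of Gclm to Gclc, the levels per length and, with their effective lengths, 1 alternative. The ratio was tested with an exact permutation test (SciPy 1.17.1). The edgeR test was also run on simulated counts. Far fewer genes were changed there than were called here, so that run does not check calls this widespread.

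The members and lists were chosen with earlier results of these data known, and with them the rule for genes named: all members, both targets, Nfe2l2 and Atf4, up to 3 genes of smallest p per list and comparison with siCont, and the 3 genes most correlated with each member. Their values in further comparisons are also given. Chi-square per degree of freedom was 2.34 to 2.87 between the runs of 1 library and 2.43 to 17.1 between libraries of 1 group. Where 1 symbol had several gene identifiers, that with most counts was kept. Promoters of 3 members were in the RefSeq table used. Alternatives were DESeq2 size factors, library totals, the DESeq2 1.42.0 Wald test, limma-voom (limma 3.58.1), other filters, a length offset, each run alone, a replicate block, a fit of the compared groups only, and each library left out in turn.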

Additional observations from a re-analysis of the deposited data

Results flagged for a closer look

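For each of the 5 genes the effect of Keap1 depletion differed with and without Fem1b depletion, by edgeR's test of the difference itself. On the log2 scale the effect was smaller with siFem1b by -2.93 for Slc7a11 (7.93-fold higher without siFem1b, and with it 1.04-fold, which did not pass the test) and by -1.27 for Gclm (2.93-fold and 1.21-fold). The difference was -0.71 for Gss (2.03-fold and 1.24-fold), -0.56 for Gsr (1.99-fold and 1.35-fold) and -0.25 for Gclc (2.64-fold and 2.22-fold). Keap1 RNA was at 9.99 CPM in siKeap1 and 9.38 CPM in siFem1b/Keap1.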

How the results depend on the processing

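Over 46 results and 787 alternative values, 780 kept their direction and side of the threshold (a count, within 1.5 times). For Gss in siFem1b against siCont, library totals alone gave 0.16 (adjusted p = 0.010) and the filter of at least 5 CPM gave 0.12 (adjusted p = 0.042), both past the threshold. Gsr in siFem1b/Keap1 against siCont missed it with the length offset, 0.14 (adjusted p = 0.067), and the Gclc interaction with the first run alone, -0.23 (adjusted p = 0.18). The sign of Slc7a11 in siFem1b/Keap1 against siFem1b turned without replicate 3 of siFem1b, -0.019, or of siFem1b/Keap1, -0.030. The Gclm to Gclc log2 ratio of siFem1b against siCont turned to -0.019 with counts not divided by length. The causes were not tested, except that no length correction enters this ratio. Values that kept their call but moved by over 1.5 times were Gclm in siFem1b/Keap1 against siCont with the length offset (-0.27) and, with library totals alone, Gsr in siFem1b (-0.14) and siFem1b/Keap1 (0.32) against siCont. Library totals shifted the median of all genes by 0.12 in siFem1b/Keap1 and 0.098 in siFem1b against siCont. These causes were not tested either. Other pathway genes called ranged from 32 to 41 in siKeap1 against siCont and from 18 to 23 for the interaction.

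Same-numbered libraries of different groups were not paired by the labels, and their deviations correlated at -0.078 to 0.117 over 18 pairs, with the own number best in 4. With a replicate block the interaction was -2.94 for Slc7a11 and -0.25 for Gclc (adjusted p = 0.027), and no call of the 5 genes changed. Transcript shares rest on estimated counts, and for Slc7a11-205 and Gss-207 outside siKeap1 on few of them.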
